A study of Mus musculus with 18 samples.

Results

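The genes described here are 40 cell cycle and DNA replication genes, measured by RNA-seq in the colon of germ-free mice. They were chosen by symbol from the deposited count table: 21 genes whose products act at the start of S phase or at the replication fork (S-phase members) and 19 whose products act in G2 and mitosis (mitotic members). All 40 symbols were found among the 45777 genes of the table, and all 40 passed the filter on low counts that left 18848 genes for testing. The mice were male C57BL/6J animals of 8 weeks, and all 18 were kept germ-free, the WT controls included. The 3 genotypes were wild type (WT), Lao1-/- (LAO1KO) and mice that lack both Lao1 and Il4i1 (DKO). Both genes code for enzymes that oxidise L-amino acids. Each genotype was sampled after sterile water and after 2.5% dextran sulfate sodium (DSS) in the drinking water for 24 h. DSS is a polysaccharide that injures the colonic epithelium. Each of the 6 groups had 3 libraries, which the series design calls biological replicates and the labels letter A to C. The labels give neither the deleted exons nor the part of the colon that was taken.

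Cells that prepare to divide load the MCM helicase onto origins of replication in G1, fire those origins and copy their DNA in S phase, and then switch to a later programme of cyclin B, mitotic kinases and kinesins. The S-phase genes are classically driven by E2F factors after the retinoblastoma protein is phosphorylated. The mitotic genes are driven later by the MuvB complex with B-Myb and FOXM1. Their promoters typically hold a CHR element and CCAAT boxes. In the colon most dividing cells are the transit-amplifying progenitors of the crypt, with smaller numbers of dividing immune and stromal cells. In whole tissue, fewer dividing cells and less of these mRNAs per dividing cell cannot be told apart.

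The libraries held 26003174 to 36553193 counts. The 13 mitochondrially encoded mRNAs took 6.89 to 9.08% of counts in the WT water libraries and 26.1 to 44.9% in the WT DSS libraries, with WT DSS C highest and with the lowest scaling factor, 0.625. They took 8.67 to 14.4% in LAO1KO water and 15.7 to 23.2% in LAO1KO DSS, again without overlap. In DKO they took 10.5 to 20.7% under water and 14.3 to 23.6% under DSS. Lao1 had 0 reads in 4 of 6 WT libraries and at most 4 in the other two, while 5 of 6 libraries labelled LAO1KO and 5 of 6 labelled DKO held reads, up to 10 each. Lao1 reads thus ran against the labels at a very low level, and where they lie relative to the deleted part is not known, so they could not check the labels. Il4i1 had 0 reads in all 6 DKO libraries. In WT it had 52, 4 and 0 reads under water and 8, 2 and 0 under DSS, and it was also at 0 in 2 of 6 LAO1KO libraries, so its counts check the DKO label only weakly. Libraries that stood apart for the cell cycle genes were WT water B, which had the highest value of all 18 libraries for 16 of the 19 mitotic and 8 of the 21 S-phase members, and WT DSS C, which had the lowest for 9 mitotic and 9 S-phase members. WT water A was the highest for another 8 S-phase members. Summed over members, the S-phase genes took 0.0176 to 0.0638% of a library's counts and the mitotic genes 0.0230 to 0.0878%.

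The promoters of these genes are shown because their letters differ between the classes and the gene lists did not use them. RefSeq windows (GRCm38.p6) from 250 bases before to 50 bases after each start were on hand for 32 of the 40 members, 18 S-phase and 14 mitotic. Kif20a, Ccne2, Foxm1, Gins2, Ccna2, Aurkb, Tpx2 and Mcm4 had no entry. Each window was searched on both strands for an E2F site (TTTCCCGC, TTTGGCGC, TTTCGCGC or TTTGCCGC), a CHR element (TTTGAA or TTTAAA, the latter reading alike on both strands) and a CCAAT box (CCAAT). The 250 bases before the start follow for 2 S-phase genes that are lower under DSS, Mcm5 (chr8:75109259-75109508, plus strand) and Mcm6 (chr1:128359706-128359955, minus strand), with the E2F matches in capitals.
Mcm5: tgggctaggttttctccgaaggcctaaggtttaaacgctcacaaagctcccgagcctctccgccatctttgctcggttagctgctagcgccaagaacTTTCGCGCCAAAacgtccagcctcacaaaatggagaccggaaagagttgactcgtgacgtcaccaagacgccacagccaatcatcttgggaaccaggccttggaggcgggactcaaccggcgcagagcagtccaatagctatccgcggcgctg
Mcm6: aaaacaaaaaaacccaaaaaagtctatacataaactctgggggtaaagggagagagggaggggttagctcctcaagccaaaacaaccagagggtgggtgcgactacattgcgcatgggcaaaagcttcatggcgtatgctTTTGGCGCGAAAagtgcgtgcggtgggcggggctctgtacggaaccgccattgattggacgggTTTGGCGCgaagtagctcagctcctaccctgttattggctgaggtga
In both genes a match on the plus strand overlaps one on the minus strand, so that the pair forms a single longer run of capitals. It lies 153 to 142 bases before the Mcm5 start and 110 to 99 bases before the Mcm6 start, and Mcm6 has another match at 47 to 40 bases. The same stretch follows for 3 mitotic genes, Top2a (chr11:99024190-99024439, minus strand), Cdk1 (chr10:69352913-69353162, minus strand) and Kif11 (chr19:37376132-37376381, plus strand), with the CHR elements and CCAAT boxes in capitals, ATTGG and TTCAAA being the same letters read on the other strand.
Top2a: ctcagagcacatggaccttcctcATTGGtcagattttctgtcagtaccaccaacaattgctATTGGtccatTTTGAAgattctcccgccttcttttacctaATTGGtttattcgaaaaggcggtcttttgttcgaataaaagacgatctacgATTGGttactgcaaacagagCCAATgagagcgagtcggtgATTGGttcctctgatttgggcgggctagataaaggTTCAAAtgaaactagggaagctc
Cdk1: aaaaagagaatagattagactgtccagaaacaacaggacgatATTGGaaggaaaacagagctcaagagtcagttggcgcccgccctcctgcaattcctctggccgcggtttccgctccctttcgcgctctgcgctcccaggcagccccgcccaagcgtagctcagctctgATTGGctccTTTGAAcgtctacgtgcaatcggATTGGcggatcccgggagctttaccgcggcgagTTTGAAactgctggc
Kif11: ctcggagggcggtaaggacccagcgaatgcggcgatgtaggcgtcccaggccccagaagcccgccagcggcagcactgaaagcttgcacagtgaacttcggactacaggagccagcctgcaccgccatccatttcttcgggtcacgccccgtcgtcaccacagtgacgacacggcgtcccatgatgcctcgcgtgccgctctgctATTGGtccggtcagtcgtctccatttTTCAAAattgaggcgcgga
Each of the 3 has a CHR element close to its start, at 23 to 18 bases in Top2a, 15 to 10 in Cdk1 and 19 to 14 in Kif11, with CCAAT boxes upstream of it. Cdk1 also holds an E2F match, left in lower case. The genes shown were picked as examples. Pcna, Rrm2 and Fen1, which were also lower under DSS averaged over genotypes, held no E2F match. Cdk1 and Kif11 passed in no comparison below.

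Counted over genes, an E2F match was present in 8 of the 18 S-phase members (44.4%), in 1 of the 14 mitotic members (7.14%, Cdk1) and in 704 of the 27025 genes of the promoter table (2.61%). A CHR element was present in 6 of 18 S-phase members (33.3%) and 13 of 14 mitotic members (92.9%), beside 30.6% of all genes, so that in the S-phase class it was about as frequent as in the table. CCAAT boxes were found in 61.1% of the S-phase members, 92.9% of the mitotic members and 41.1% of all genes. CHR and CCAAT occurred together in 4 S-phase members, 12 mitotic members and 13.4% of all genes. Of the members that passed the test in any comparison below, 11 had a window, and 4 of these held an E2F match, 6 a CHR element and 10 a CCAAT box. Among the 21 members with a window and no call, the numbers were 5, 13 and 14. A match is a string of letters, and binding was not measured.

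**Figure D1:**
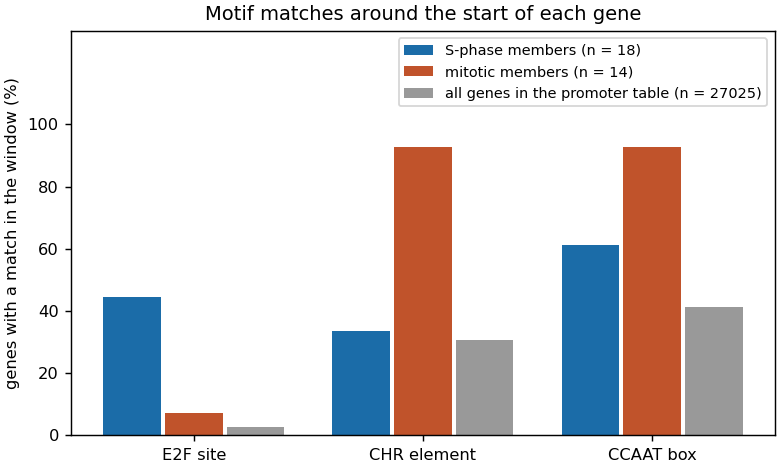
Share of genes (%) whose window of 250 bases before to 50 bases after the start holds an E2F site, a CHR element or a CCAAT box, for S-phase members (n = 18), mitotic members (n = 14) and all genes of the promoter table (n = 27025). The E2F bar is highest for the S-phase members at 44.4%, and the CHR bar is highest for the mitotic members at 92.9%.

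Levels are compared between genes per kilobase of exon, as mean CPM (read counts scaled to library size with TMM factors) of the 3 WT water libraries. By that measure Pcna, the sliding clamp of the replication fork, was the most abundant S-phase member at 42.4 CPM per kb, and Pola1, the catalytic subunit of DNA polymerase alpha, the least abundant at 0.988. The helicase subunits Mcm6, Mcm7, Mcm5 and Mcm3 lay between them at 10.3, 9.78, 7.80 and 7.44. Among mitotic members Ccnb2 (cyclin B2) and Ube2c (a ubiquitin-conjugating enzyme of the anaphase-promoting complex) were highest at 18.9 and 18.8, and Cenpf (a kinetochore protein) was lowest at 1.12. The median was 4.53 for the S-phase and 6.08 for the mitotic members. Within groups, mitotic members varied more between libraries than S-phase members: the median within-group SD of log2 (CPM + 0.5) was 0.36 against 0.28, and Ube2c varied most (0.49) and Mcm7 least (0.19).

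Averaged over the 3 genotypes, 24 h of DSS lowered 6 of the 40 genes and raised none. All 6 were S-phase members: the helicase subunits Mcm5 and Mcm6, the clamp Pcna, the flap endonuclease Fen1, the ribonucleotide reductase subunit Rrm2 and cyclin E2 (Ccne2), 1.28 to 1.52-fold lower. None of the 19 mitotic members passed. The test was edgeR's quasi-likelihood test with Benjamini-Hochberg adjustment over all 18848 genes at 0.05. It called 9.18% of all genes lower and 6.72% higher in this comparison, and the members' share of 6 in 40 was 15%. In either direction it called 15.9% of all genes, so the 40 members together were called about as often as genes at large. The median log2 fold change was -0.30 for the S-phase members, -0.12 for the mitotic members and 0.03 for all genes, and 20 of 21 S-phase and 15 of 19 mitotic members had a negative value beside 45.8% of all genes.

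**Figure D2:**
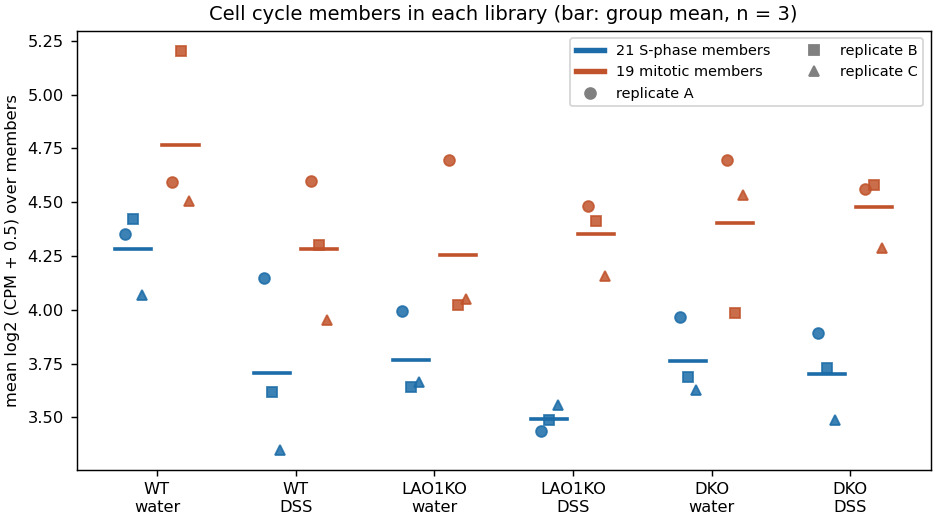
Mean log2 (CPM + 0.5) over the 21 S-phase members (blue) and the 19 mitotic members (orange) in each of the 18 libraries; symbols mark the replicate letter and bars the group mean (n = 3). WT water has the highest group mean of both classes (4.28 and 4.77), and the LAO1KO DSS libraries have the lowest S-phase mean (3.49).

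The MCM complex is the helicase that unwinds DNA ahead of the fork. Mcm5 (chromosome 8, 75109569 to 75128439, plus strand, GRCm38) had 36.6, 35.9 and 20.8 CPM in WT water A to C and 19.5, 12.98 and 8.11 in WT DSS A to C. In LAO1KO it had 16.6, 14.5 and 14.1 under water and 10.4, 11.3 and 11.8 under DSS. The DKO values were 18.3, 16.2 and 15.6 under water and 19.5, 13.6 and 11.1 under DSS. Water and DSS libraries did not overlap in WT or in LAO1KO, but did in DKO. Averaged over genotypes Mcm5 fell by 0.60 on the log2 scale (SE 0.15, 1.52-fold lower, edgeR adjusted p = 0.0141). Its own log2 changes were -1.20 in WT, -0.44 in LAO1KO and -0.18 in DKO, of which that in WT passed.

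Mcm6 (chromosome 1, 128331590 to 128359664, minus strand) had 54.9, 42.5 and 46.6 CPM in WT under water and 41.1, 26.8 and 24.6 under DSS. The LAO1KO libraries had 40.7, 32.5 and 31.1 under water and 23.8, 25.7 and 28.4 under DSS, and the DKO libraries 42.03, 32.1 and 27.04 and 37.1, 32.01 and 27.5. As for Mcm5, the treatments were apart in WT and LAO1KO and overlapped in DKO. The averaged log2 change was -0.38 (SE 0.11, 1.30-fold lower, edgeR adjusted p = 0.0321).

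Pcna and Fen1 act together on the lagging strand, the clamp holding the nuclease that trims Okazaki fragments. Pcna (chromosome 2, 132249162 to 132253314, minus strand) had 105.3, 106.5 and 93.1 CPM in WT under water and 93.5, 75.1 and 71.4 under DSS. In LAO1KO the values were 122.5, 83.2 and 85.7 under water and 63.6, 54.5 and 79.2 under DSS, and in DKO 92.8, 78.4 and 76.7 and 81.4, 73.5 and 64.9. The treatments were apart in LAO1KO, where every water library lay above every DSS library, and overlapped in WT and DKO. Pcna fell by 0.36 on the log2 scale on average (SE 0.10, 1.28-fold lower, edgeR adjusted p = 0.0184). Fen1 (chromosome 19, 10199132 to 10204169, minus strand) had 18.99, 23.7 and 16.4 CPM in WT under water and 17.2, 11.1 and 10.5 under DSS. Its LAO1KO values were 19.3, 11.8 and 13.1 and 9.79, 9.98 and 11.1, and its DKO values 14.5, 11.8 and 10.6 and 13.2, 13.2 and 9.73. Here too LAO1KO was the genotype without overlap, and in DKO the group means were nearly equal (12.3 ± 2.01 and 12.1 ± 2.02, SD, n = 3). The averaged log2 change of Fen1 was -0.38 (SE 0.13, 1.30-fold lower, edgeR adjusted p = 0.0489), the value closest to the threshold among the 6.

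Rrm2 encodes the small subunit of ribonucleotide reductase, which makes deoxynucleotides. It had 19.1, 38.4 and 20.7 CPM in WT under water and 18.8, 12.5 and 12.4 under DSS. LAO1KO had 16.5, 12.3 and 12.8 and 9.57, 9.98 and 10.8, and DKO 18.7, 11.8 and 13.6 and 16.04, 10.5 and 10.8. The 2 treatments were apart in WT and LAO1KO, and WT water B stood far above the other WT water libraries. The averaged log2 change was -0.51 (SE 0.15, 1.423-fold lower, edgeR adjusted p = 0.0296). It was -0.45 in LAO1KO and -0.24 in DKO alone, where neither passed.

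Ccne2, a cyclin that activates CDK2 at the start of S phase, differed from the other 5 in its pattern. It had 4.65, 6.34 and 5.88 CPM in WT under water and 5.95, 3.76 and 3.88 under DSS. The LAO1KO libraries had 6.07, 5.60 and 7.10 and 2.83, 3.52 and 4.25, and the DKO libraries 5.51, 4.92 and 5.03 and 3.31, 4.65 and 3.02. Its treatments were apart in LAO1KO and in DKO and overlapped in WT, and its highest group was LAO1KO water (6.26 ± 0.771 CPM, SD, n = 3), not WT water (5.62 ± 0.875). The averaged log2 change was -0.54 (SE 0.13, 1.46-fold lower, edgeR adjusted p = 0.0128), with -0.31 in WT, -0.83 in LAO1KO and -0.49 in DKO, none of which passed alone. Its relative Ccne1 had a smaller averaged value of -0.12 (adjusted p = 0.596).

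**Figure D3:**
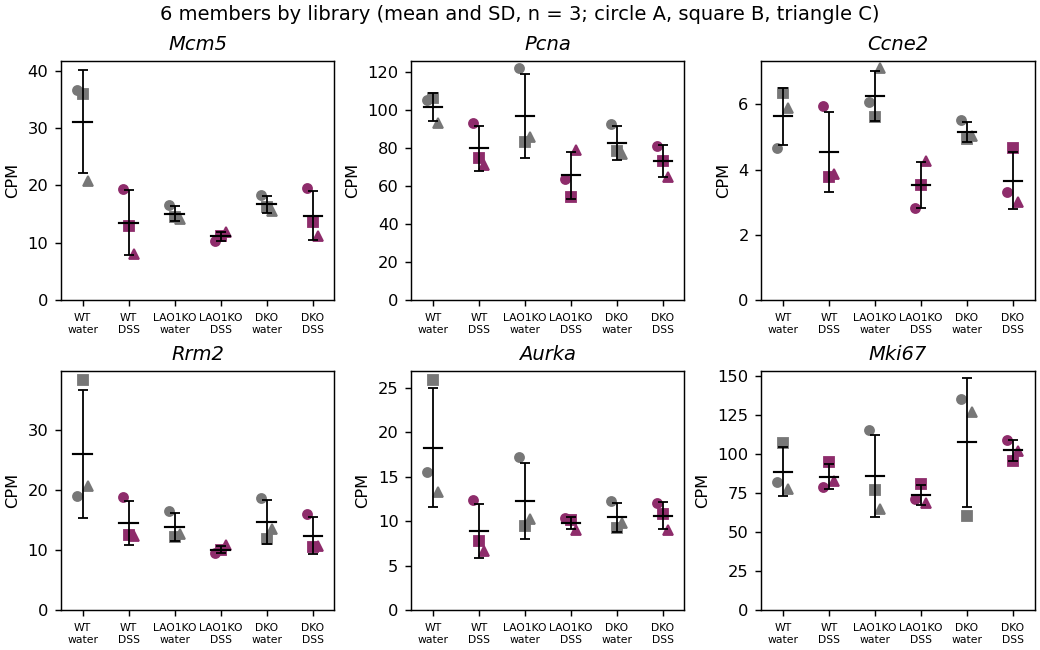
CPM of Mcm5, Pcna, Ccne2, Rrm2, Aurka and Mki67 in each library, with the group mean and SD (n = 3; grey water, purple DSS; circle A, square B, triangle C). Mcm5, Rrm2 and Aurka are highest in WT water, Ccne2 is lower under DSS in LAO1KO and DKO without overlap, and Mki67 spreads from 60.4 to 135.4 CPM within DKO water.

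Calls in the averaged comparison moved with single libraries and with the model. Mcm5, Ccne2 and Pcna kept an adjusted p under 0.05 whichever of the 18 libraries was omitted, Mcm6 in 13 of these fits, Rrm2 in 12 and Fen1 in 6. The count of members called was 3 when WT DSS C, LAO1KO DSS A, DKO water A or DKO DSS C was left out and 16 without WT DSS A, and it was 4 without WT water B and WT DSS C together. How the share of all genes called moved in those fits is not given here. With the replicate letter as a block edgeR called 13 members lower, beside 9.97% of all genes, and with a block for each letter within each genotype 13 again, beside 9.68%. All 6 genes above kept their calls in both blocked fits.

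No mitotic member passed in the averaged comparison with edgeR, where 2 of 19 had an unadjusted p under 0.05, and DESeq2 called 1 and limma voom 0, beside 21.2 and 32.8% of all genes in either direction. Those 2 were Aurka and Top2a. Aurka, a kinase of the mitotic spindle, had an averaged log2 change of -0.44 (SE 0.16, edgeR adjusted p = 0.0643). Top2a, the topoisomerase that untangles sister chromatids, had -0.28 (SE 0.12, adjusted p = 0.127). The next smallest p-values were those of the spindle motor Kif11 (-0.23, adjusted p = 0.299) and cyclin A2 (Ccna2, -0.25, adjusted p = 0.314). Cenpf, Plk1, Cenpe and Ccnb2 had positive values, from 0.01 to 0.12. The median of the mitotic members changed sign with the processing, to 0.02 with limma voom's library weights and 0.02 without WT water B and WT DSS C. Whether DSS affected the classes differently was not tested.

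In WT alone, DSS lowered 11 of the 40 genes, beside 6.59% of all genes called lower and 6.29% called higher, and no member was higher. The 8 S-phase genes were the helicase subunits Mcm2, Mcm3, Mcm5 and Mcm6, the replicative polymerase gene Pola1, the helicase cofactor Gins2 and both ribonucleotide reductase genes, Rrm1 and Rrm2. The 3 mitotic genes were Top2a, Aurka and Kif20a, a kinesin of cytokinesis. Unlike the averaged comparison, both classes had nearly equal medians here, -0.57 for the S-phase and -0.59 for the mitotic members, beside 0.02 for all genes. Water and DSS libraries were fully apart, with DSS lower, for 8 of 21 S-phase and 4 of 19 mitotic members, beside 15.8% of all genes. In WT the letters may pair the libraries: the deviations of same-letter water and DSS libraries from their group means correlated at 0.22 to 0.30 over genes, and those of different letters at -0.20 to -0.03. Deviations cancel out within each group, so positive same-letter values force lower values for different letters. The second range is therefore not separate support for pairing. With a letter block the count was 19 (12 S-phase, 7 mitotic), beside 7.55% of all genes lower, and with a block for each letter within each genotype it was 16 (10 and 6), beside 7.43%. All 11 calls held in both. DSS was lower in each of the 3 same-letter pairs for 17 of 21 S-phase and 10 of 19 mitotic members, beside 26.0% of all genes. The mitochondrial mRNA share also set the treatments fully apart in WT, at 6.89 to 9.08% under water and 26.1 to 44.9% under DSS. Its part in these calls was not tested.

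Mcm5 had the largest change, -1.20 on the log2 scale (SE 0.27, 2.29-fold lower, edgeR adjusted p = 0.00957), from 31.1 ± 8.92 to 13.5 ± 5.70 CPM (SD, n = 3). Mcm2 had 30.97, 29.8 and 19.7 CPM under water and 23.8, 12.5 and 10.3 under DSS, with WT DSS A above WT water C but every DSS library below the water library of its letter. Mcm3 had 29.9, 30.3 and 23.5 and 23.3, 13.7 and 9.05, where the closest pair of libraries differed by less than 1 CPM. The log2 changes of these helicase genes were -0.78 (SE 0.25, adjusted p = 0.0449) and -0.85 (SE 0.27, adjusted p = 0.0433), and that of Mcm6 was -0.64 (adjusted p = 0.0406).

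Gins2, a subunit of the GINS complex that activates the helicase, had 8.63, 8.93 and 5.75 CPM under water and 4.68, 3.10 and 3.06 under DSS. All 3 water libraries were above all 3 DSS libraries, and the log2 change was -1.10 (SE 0.26, 2.14-fold lower, edgeR adjusted p = 0.0137). Pola1 had 9.69, 8.61 and 7.82 CPM under water and 6.95, 4.68 and 4.23 under DSS, again apart, with a log2 change of -0.71 (SE 0.22, adjusted p = 0.0426). Rrm1, the large subunit of ribonucleotide reductase, had 49.96, 62.9 and 41.2 CPM and 39.4, 28.6 and 21.7, and its change was -0.78 (SE 0.24, adjusted p = 0.0393). For Rrm2 the change was -0.84 (SE 0.26, adjusted p = 0.0425).

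Aurka had 15.6, 25.9 and 13.3 CPM under water and 12.4, 7.78 and 6.64 under DSS, the largest change among mitotic members (-1.02, SE 0.27, 2.03-fold lower, edgeR adjusted p = 0.0228). Kif20a had 14.1, 20.2 and 12.7 and 10.02, 10.6 and 6.64 CPM (-0.78, SE 0.22, adjusted p = 0.0277). Top2a had 71.1, 95.8 and 65.6 and 57.2, 44.4 and 36.9 CPM (-0.75, SE 0.22, adjusted p = 0.0316). In all 3 genes WT water B was the highest of the 18 libraries and WT DSS C the lowest, and water and DSS libraries did not overlap. The mitotic members Cenpe and Cenpf and the S-phase member Prim1, singled out after their values were seen, had positive values in WT (0.18, 0.13 and 0.03), and the proliferation marker Mki67 had -0.05 with 82.1, 107.1 and 77.6 CPM under water and 79.2, 94.9 and 82.99 under DSS. None of these 4 passed.

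The number of WT calls changed with the libraries kept. The count of 11 became 1 without WT water B, 1 without WT DSS C, 3 without WT DSS B, 4 without WT water A, 12 without WT water C and 21 without WT DSS A, and 0 members were called (edgeR) without WT water B and WT DSS C together. The share of all genes called in each of these fits is not given here, so the counts are not a result about the members. The changes themselves moved less than the count: over the 66 values of these 11 genes in the 6 fits with 1 WT library omitted, log2 changes ran from -1.58 to -0.45, all negative, and in 35 of the 36 cases of a lost call the change was within 1.5 times its full value. The genes were chosen for passing in the full fit, which shares most libraries with these fits, so negative values were likely beforehand. Mcm5 alone kept its call whichever of the 6 WT libraries was omitted, and a fit to the 6 WT libraries by themselves called 1 member, Gins2. For that last fit the share of all genes called is not given either.

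**Figure D4:**
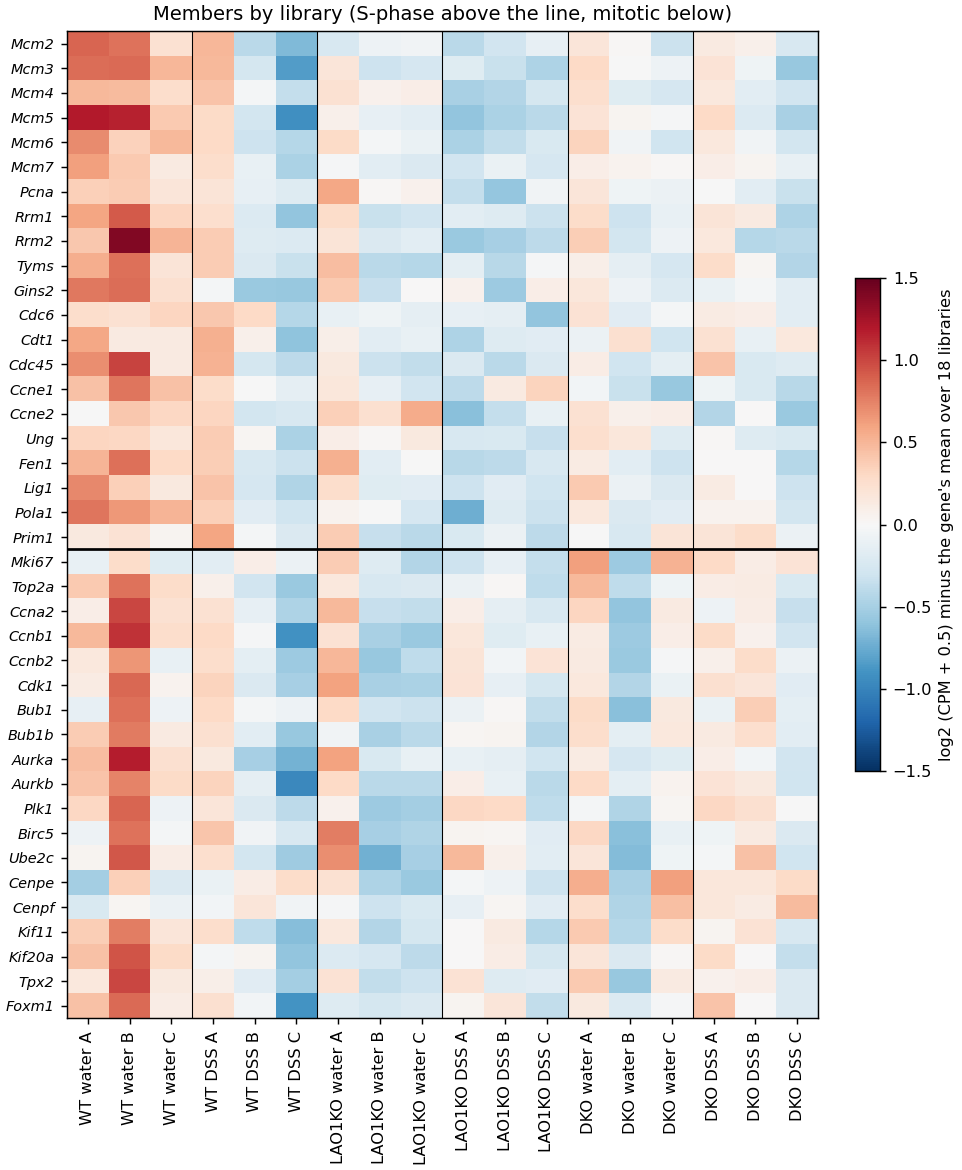
Each member's log2 (CPM + 0.5) minus its mean over the 18 libraries, S-phase members above the line and mitotic members below; red is above and blue below the gene's mean, and columns are libraries by group. The WT water columns are red for most S-phase members, WT water B is the reddest column for the mitotic members, and WT DSS C is blue in both classes.

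In LAO1KO no member passed the edgeR test of DSS against water, beside 0.196% of all genes called in either direction. An unadjusted p under 0.05 was reached by 5 members, all of them S-phase genes with a negative value. DESeq2 called 2 members, both S-phase and lower, beside 3.58% of all genes. Limma voom called 13 of 40 (6 S-phase members lower, 7 mitotic members higher), but also 26.5% of all genes, so this count lies near its background. The edgeR medians were -0.23 for the S-phase and 0.09 for the mitotic members, and 20 of 21 S-phase members had a negative value while 12 of 19 mitotic members had a positive one. Water and DSS libraries were apart, with DSS lower, for 9 of 21 S-phase members (Mcm4, Mcm5, Mcm6, Pcna, Rrm2, Cdt1, Ccne2, Ung and Fen1) and for no mitotic member, beside 10.1% of all genes. The mitochondrial mRNA share also set the treatments apart in LAO1KO, at 8.67 to 14.4% under water and 15.7 to 23.2% under DSS. Its part in these differences was not tested. The lowest log2 change was that of Ccne2 (-0.83, adjusted p = 0.124), followed by Pcna (-0.56, adjusted p = 0.136), and the highest was that of the mitotic kinase gene Plk1 (0.43, adjusted p = 0.424). LAO1KO water A stood above the other 2 water libraries in most mitotic members, for example with 59.4, 21.9 and 25.6 CPM of Ube2c and 50.7, 20.7 and 21.5 of Birc5, the survivin subunit of the chromosomal passenger complex. These were chosen after their values were seen.

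In DKO no member passed with edgeR, beside 0.0159% of all genes, and 1 member, Ccne2, had an unadjusted p under 0.05, while DESeq2 and limma voom called 0, beside 0.923 and 2.54% of all genes. The letters may pair the DKO libraries too (same-letter correlations of 0.11 to 0.34), and with either block 0 members were called. DSS was lower in all 3 same-letter pairs for 5 of 21 S-phase and 0 of 19 mitotic members, beside 19.8% of all genes. The medians were -0.04 for the S-phase and 0.03 for the mitotic members, close to the 0.02 of all genes, with 12 of 21 and 9 of 19 members negative. Changes ran from -0.49 for Ccne2 to 0.33 for Plk1. DKO water B was the lowest of all 18 libraries for 6 mitotic members and far below its group in Mki67 (135.4, 60.4 and 127.1 CPM in DKO water A to C).

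**Figure D5:**
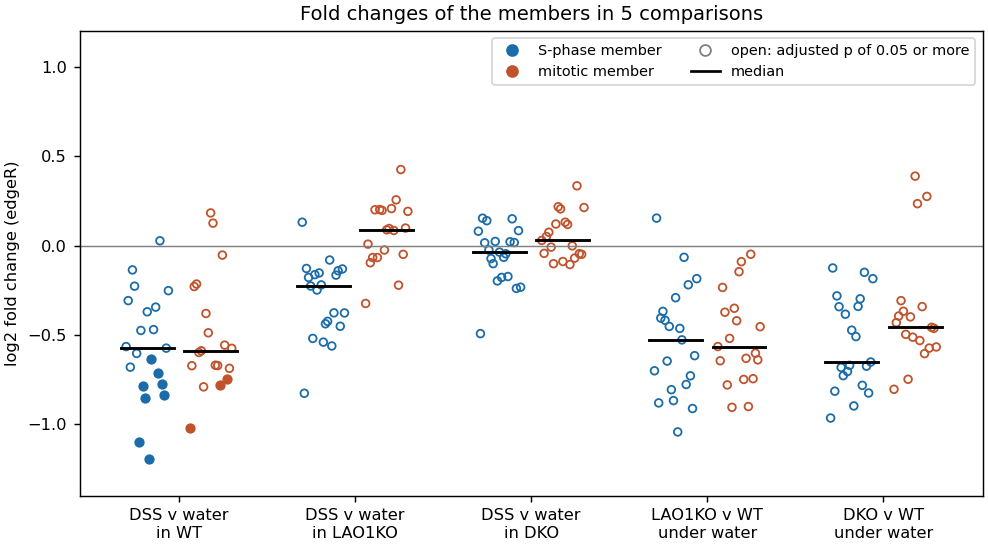
Log2 fold changes (edgeR) of the 21 S-phase members (blue) and 19 mitotic members (orange) in 5 comparisons; filled points have an adjusted p under 0.05, open points do not, and black bars are medians. DSS against water in WT and both knockouts against WT under water share the 3 WT water libraries; the medians there lie between -0.46 and -0.65, and those of DSS in DKO lie within 0.04 of 0.

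The knockouts were next set against WT. Under water no member passed with edgeR in either comparison, although most had lower values in the knockouts. For LAO1KO the medians were -0.53 (S-phase) and -0.57 (mitotic) beside 0.01 for all genes, 39 of 40 members were negative, and 21 (12 S-phase, 9 mitotic) had an unadjusted p under 0.05 beside 2690 of all 18848 genes. The comparison called 0.0531% of all genes. DESeq2 called 5 members (3 S-phase, 2 mitotic), beside 1.58% of all genes, and limma voom 19 (13 and 6), beside 4.95%, all lower. For DKO the medians were -0.65 and -0.46, 37 of 40 members were negative, and 19 (14 S-phase, 5 mitotic) had an unadjusted p under 0.05 beside 3263 of all genes, with 0.621% of all genes called. DESeq2 called 5 members, all S-phase and lower, beside 4.15% of all genes, and limma voom 0, beside 1.13%. The mitochondrial mRNA share was higher in all 3 DKO water libraries than in any WT water library, and its part in these differences was not tested.

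LAO1KO water libraries lay wholly below the WT water libraries in 13 of 21 S-phase and 6 of 19 mitotic members, beside 8.22% of all genes, and DKO water libraries did so in 16 of 21 and 3 of 19, beside 9.86%. All 6 MCM genes were among them in both knockouts. Mcm5 was at 31.1 ± 8.92 CPM in WT water, 15.1 ± 1.35 in LAO1KO water and 16.7 ± 1.424 in DKO water (SD, n = 3), with adjusted p-values (edgeR) of 0.173 and 0.118. Pola1 had 8.71 ± 0.938, 5.07 ± 0.619 and 5.06 ± 0.811 CPM (adjusted p = 0.183 and 0.107). Cyclin E1 (Ccne1) had 6.37 ± 1.06, 3.91 ± 0.706 and 3.25 ± 0.679 CPM, and its adjusted p of 0.0809 for DKO was the smallest of any member in these comparisons. Exceptions were Ccne2 in LAO1KO (0.15) and Mki67, Cenpe and Cenpf in DKO (0.28, 0.39 and 0.23), which were positive. These comparisons and the WT response to DSS share the 3 WT water libraries, whose WT water A or B was the highest of all 18 libraries for 16 of 21 S-phase members, so a high value there enters all 3.

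Under DSS the genotypes were closer. LAO1KO against WT called 0 members with edgeR (1 had an unadjusted p under 0.05, DESeq2 called 0 and limma voom 2, beside 0.292 and 5.13% of all genes) and 0.0849% of all genes, with medians of -0.29 (S-phase) and 0.09 (mitotic). DKO against WT called 0 members (0 at an unadjusted p under 0.05, 0 with DESeq2 and 0 with limma voom, beside 0.791 and 2.44% of all genes) and 0.255% of all genes, with medians of -0.01 and 0.20. The DSS response itself was then compared between genotypes by an interaction term. For LAO1KO against WT it called 0 members with edgeR (7 at an unadjusted p under 0.05, 1 with DESeq2 and 6 with limma voom, beside 2.34 and 12.3% of all genes) and 0% of all genes, and the medians of the interaction were 0.34 and 0.70, the positive sign meaning a less negative response than in WT. Kif20a had the smallest p, with an interaction of 1.03 (SE 0.31, edgeR adjusted p = 0.151). For DKO against WT it called 0 members (11 at an unadjusted p under 0.05, 0 with DESeq2 and 0 with limma voom, beside 2.61 and 1.25% of all genes) and 0.0584% of all genes, with medians of 0.58 and 0.63. A difference in response between genotypes was therefore not shown for any member with edgeR.

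The classes were set against each other within each library, as the mean log2 (CPM + 0.5) of the mitotic members minus that of the S-phase members. The size of this difference depends on gene lengths, so it is read only between libraries, where it ran from 0.24 to 1.05. It was 0.49 ± 0.27 in WT water and 0.58 ± 0.12 in WT DSS (SD, n = 3). In LAO1KO it was 0.49 ± 0.19 under water and 0.86 ± 0.23 under DSS, and in DKO 0.64 ± 0.31 and 0.77 ± 0.09. Averaged over genotypes it was larger under DSS by 0.20 (SE 0.10, from the within-group SD of 0.22; not tested), and the ranges under water and DSS overlapped in each genotype. LAO1KO came closest to a separation, with 0.38 to 0.70 under water and 0.60 to 1.05 under DSS.

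Other genes of the same pathways were counted from 4 lists that hold 144 genes and none of the members. In the averaged comparison the share called in either direction was 14.3% of the other replication genes, 6.38% of the other mitotic genes, 26.9% of the G1, E2F and retinoblastoma genes and 14.3% of the CDK inhibitor and p53 target genes, beside 15.9% of all genes. All but the third thus lay near or below the background, and the genes below are described singly, not as a change of their list. Of 49 other replication genes, DSS averaged over genotypes lowered 6 and raised 1 (median -0.16). Cdc7, the kinase that fires origins, went from 12.6, 17.1 and 12.7 to 11.2, 9.70 and 6.05 CPM in WT, from 12.04, 9.77 and 9.96 to 6.46, 7.71 and 7.32 in LAO1KO and from 14.3, 8.29 and 12.3 to 9.53, 6.56 and 7.33 in DKO. Its averaged log2 change was -0.60 (SE 0.13, edgeR adjusted p = 0.00780). The single-strand binding protein gene Rpa1 (-0.32) and the histone mRNA binding protein gene Slbp (-0.29) fell as well. The origin recognition subunit Orc3 rose (0.34, adjusted p = 0.00266), from 23.7, 19.8 and 26.4 to 33.9, 32.3 and 36.8 CPM in WT. Of 47 other mitotic genes, 3 fell and 0 rose with edgeR (5 had an unadjusted p under 0.05; median -0.11): Ect2, which starts cytokinesis (-0.48), cyclin F (Ccnf, -0.64) and the kinetochore gene Spc25 (-0.74).

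Of 26 genes for G1 cyclins, E2F factors and retinoblastoma family partners, 7 fell and none rose (median -0.09). Cdc25a, a phosphatase that activates CDK2, had 51.6, 47.8 and 53.3 CPM in WT under water and 42.4, 35.8 and 41.6 under DSS, and fell by 0.40 on average (SE 0.07, edgeR adjusted p = 0.00175). E2f2, an activator of S-phase genes, had 31.3, 47.8 and 27.2 CPM in WT under water and 13.6, 14.8 and 7.23 under DSS. Its averaged change was -0.75 (SE 0.15, adjusted p = 0.00398), and its change in WT was -1.57 (2.96-fold lower, adjusted p = 0.00266). Cyclin D1 (Ccnd1, -0.35) and the repressor E2f6 (-0.34) fell as well. Of 21 tested CDK inhibitor and p53 target genes, 2 rose, Bax (0.25) and Trp53 (0.23), and 1 fell, Zmat3 (-0.37). Cdkn1a, the p21 inhibitor, had the lowest value of that list (-0.51) and did not pass (adjusted p = 0.0640). In WT alone the 4 lists had 7, 8, 6 and 2 genes lower and 1, 1, 0 and 1 higher, in the order above, or 16.3, 19.1, 23.1 and 14.3% of their genes beside 12.9% of all genes. Ect2 and Ccnf were 2.01 and 2.49-fold lower there, and Rfc5 (a clamp loader subunit) and Asf1b (a histone chaperone) 1.74 and 2.25-fold lower. Pttg1 (securin), the 1 gene of the other mitotic list called higher, was 1.52-fold higher. Hmmr and Cdc25b of the same list had smaller p-values than Pttg1 and were 1.90 and 1.61-fold lower. No gene of the 4 lists passed in DSS against water in LAO1KO or DKO, or in either knockout against WT under water with edgeR.

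Markers of other cells were measured beside these genes. The summed CPM of 9 crypt stem and progenitor markers was 221 to 243 in WT water and 188 to 229 in WT DSS. It was 171 to 261 over all 18 libraries. Within the list Axin2 fell (-0.63) and Smoc2 rose (0.37) in the averaged comparison. These were 2 of 9 genes (22.2%), beside 15.9% of all genes called in either direction. Of 8 epithelial markers, Krt20 and Cdh1 fell (-0.80 and -0.30). Averaged values were negative for 6 of the 8 and positive for 2, with Krt18 highest (0.42). Their summed CPM overlapped in WT, at 10079 to 17723 under water and 10564 to 13499 under DSS. The 6 fibroblast markers summed to 640.5 to 1099.7 CPM in WT water, 292 to 650.5 in WT DSS, 329.8 to 696 in LAO1KO water and 306 to 535 in DKO water. They were thus high in the same group as the MCM genes. With edgeR 3 of 6 were lower under DSS in WT, beside 6.59% of all genes. The 6 smooth muscle markers summed to 5221 to 8293 CPM in WT water, 3090 to 6395 in WT DSS, 2983 to 8055 in LAO1KO water and 2085 to 4997 in DKO water, and all 6 had negative values in WT under DSS and in both knockouts under water, where none passed (edgeR; 0, 1 and 1 of 6 with an unadjusted p under 0.05). The 6 B cell markers summed to 3.03 to 8.47 CPM in WT water and 10.7 to 19.4 in WT DSS, with 0 of 6 called and 0 at an unadjusted p under 0.05. All 6 neuron and glia markers were called higher under DSS on average, beside 6.72% of all genes. Their sums were 63.7 to 90.6 CPM in WT water and 137 to 181 in WT DSS. The part of these cell types in the results was not tested. With the 13 mitochondrial mRNAs left out of the counts, the averaged comparison again called 6 members and the WT comparison 12. The share of all genes called in that fit is not given here. The TMM factors already scale for their share of counts, so this omission could change little. Whether that share marks other differences between libraries was not tested.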

How the data were processed

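Per the labels' protocols, stranded mRNA libraries were prepared from colon RNA of each mouse and read from both ends. The deposited table holds whole-number read counts per gene symbol for 18 libraries. Of tools, StringTie 2.1.3b, HISAT2 2.1.0, Trimmomatic 0.38 and FastQC 0.11.7 are listed in the submitters' processing notes, with DESeq2 1.42.1, R 4.3.2 and the builds mm10 and GRCm38. How the authors counted multiply mapped reads, strand and overlapping genes is not given in the sources used here.

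Here edgeR 4.0.16 (R 4.3.3) was fitted to all 18 libraries with 1 mean per group, TMM factors, filterByExpr and robust quasi-likelihood dispersion. The 10 comparisons were contrasts, adjusted by Benjamini-Hochberg over all 18848 genes tested, with a threshold of 0.05. Every adjusted p comes from that test. SE is the absolute log2 change over the square root of F. DESeq2 1.42.0 and limma voom 3.58.1 were alternatives, as were other size factors and filters, a replicate block, fits to fewer libraries and the omission of 13 mitochondrial mRNAs. The labels do not say that the letters pair samples. As a hint from the data, same-letter water and DSS libraries had deviations that correlated over 0.1 in 3 of 3 pairs in WT (0.22 to 0.30) and in DKO (0.11 to 0.34) and in 0 of 3 in LAO1KO, while over all groups the median was 0.04, with 18 of 45 pairs over 0.1. The unblocked fit is therefore given with blocked counts beside it. No replicate pair agreed within sampling noise. P-values rest on the spread between animals within groups as labelled. That spread is estimated once per gene from all 18 libraries and moderated over genes, not from the compared groups alone. Classes were compared as medians and as means of log2 (CPM + 0.5), with no test.

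Members and gene lists were chosen with earlier results of these data known. Members called in any comparison are given with values, and where a class had no call, the 4 with the smallest p in the averaged DSS comparison. Up to 4 genes per other list are named by p in the averaged comparison. In WT alone the choice of named genes did not strictly follow p. On simulated data, genes given a change of 1.5, 2, 4 or 8-fold were found in 50, 94, 100 and 100% of cases by the averaged comparison (18683 genes), and by DKO against WT under water in 16, 54, 84 and 96% (18652 genes). There only 50 genes per fold size changed, genes varied independently of each other, and no library stood apart. In the data the members varied together within groups, so these shares do not give the power for the members. Gene positions are from GENCODE and promoters from RefSeq.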

Additional observations from a re-analysis of the deposited data

How the results depend on the processing

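Averaged over genotypes, DSS called 6 members (15%) in the fit reported, beside 15.9% of all genes in either direction. DESeq2 called 12, beside 21.2%, and limma voom 13, beside 32.8%. The edgeR and limma voom counts thus lie near their either-direction background. The replicate block gave 13, beside 9.97% of all genes lower. A block for each letter within each genotype (added after seeing the data) also gave 13, beside 9.68% lower. With 1 library left out the count was 3 to 16. In WT the 11 calls became 19 with the replicate block, beside 7.55% of all genes lower. The count was 1 in a fit to the WT libraries alone and 0 without WT water B and WT DSS C together. It was 1 without WT DSS C and the 13 mitochondrial mRNAs, and 1 to 21 with 1 library left out. Both joint omissions were chosen after seeing the data. For fits that leave out libraries or the mitochondrial mRNAs, the share of all genes called is not given here. Counts from those fits, above and below, are therefore not a result about the members. Comparisons with 0 calls gained some. DSS in LAO1KO had 2 with DESeq2, beside 3.58% of all genes, and 13 with limma voom, beside 26.5%. It had 0 to 1 with 1 library left out. LAO1KO against WT under water had 5 with DESeq2, beside 1.58% of all genes, and 19 with limma voom, beside 4.95%. It had 0 to 1 with 1 library left out. Under DSS it had 2 with limma voom, beside 5.13%. DKO against WT under water had 5 with DESeq2, beside 4.15% of all genes, and 0 to 1 with 1 library left out. The LAO1KO interaction had 1 with DESeq2, beside 2.34%, and 6 with limma voom, beside 12.3%. Neither block changed the 0 counts of the other comparisons fitted with it. Over all groups, 10 of 18 libraries correlated best with their own letter. The causes were not tested. Over the called members, 355 alternative values were computed. Of these 259 still passed, 96 did not, and 0 changed sign. The genes were those called in the reported fit, and the refits share most of its libraries, so a change of sign was unlikely beforehand. The difference between classes under DSS, 0.20, ranged from 0.14 to 0.31.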
